A study of Mus musculus with 6 samples.

Results

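Cholesterol synthesis and sterol handling in mouse pancreatic islets was followed through 28 named genes, which cover the enzymes from acetoacetyl-CoA to cholesterol, the proteins that control them and 4 genes of sterol transport and storage. They were listed by name and each was linked to an assembled locus by the lengths of its exons and introns, on the same chromosome and strand. Of the 28 genes, 26 had a usable locus, out of 39470 loci in the deposited table, and all 26 were among the 23983 loci with enough reads to be tested. Hmgcs1, the enzyme that condenses acetoacetyl-CoA with acetyl-CoA, had no locus on its own chromosome. Insig1, which retains the sterol sensor SCAP in the endoplasmic reticulum, was left out because another locus covers 93.1% of its exonic bases.

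The islets came from C57BL/6 mice of 14 weeks. One group of 3 libraries was from mice on a normal diet and the other group of 3 from mice that had spent 8 weeks on a high fat diet. The deposited columns name the second diet by the letters HDR, and reading HDR as the high fat diet is an inference from the names, on which every direction below depends. Whether the libraries of a diet were made from different animals is not in the labels. The p-values therefore measure only how far these samples spread, which may be technical.

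Cells make cholesterol from acetyl-CoA through mevalonate, which is turned into farnesyl pyrophosphate. Squalene synthase joins farnesyl units into squalene, which is oxidised, closed into lanosterol and trimmed to cholesterol. When sterols in the endoplasmic reticulum membrane are low, SCAP escorts the transcription factor SREBP-2 to the Golgi, where it is cut, and its released part raises transcription of these enzymes. When sterols are high, INSIG proteins hold SCAP back. In beta cells the cholesterol of the plasma membrane and of the secretory granules bears on insulin secretion, and excess cholesterol impairs it.

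Promoters are shown first, because SREBP-2 works there together with the factor NF-Y, which binds the letters CCAAT. The RefSeq promoter table (GRCm38.p6, 250 bases before to 50 after each start) held 23 of the 28 genes, with 29 promoters. Printed are the 250 bases before the start for the 3 genes with the largest change among those that passed the test below, and for the first of the 3 promoters of Insig2, 5′ to 3′ on the gene's strand, with CCAAT on either strand (CCAAT or ATTGG) in capitals. All 4 lie on the minus strand, Cyp51 at chr5:4104698-4104947, Msmo1 at chr8:64733579-64733828, Ebp at chrX:8193513-8193762 and Insig2 at chr1:121332590-121332839.
Cyp51: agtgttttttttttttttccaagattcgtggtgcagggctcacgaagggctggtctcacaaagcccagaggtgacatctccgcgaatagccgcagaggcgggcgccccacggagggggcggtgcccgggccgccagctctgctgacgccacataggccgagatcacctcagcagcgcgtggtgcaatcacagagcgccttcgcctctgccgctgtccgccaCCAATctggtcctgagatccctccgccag
Msmo1: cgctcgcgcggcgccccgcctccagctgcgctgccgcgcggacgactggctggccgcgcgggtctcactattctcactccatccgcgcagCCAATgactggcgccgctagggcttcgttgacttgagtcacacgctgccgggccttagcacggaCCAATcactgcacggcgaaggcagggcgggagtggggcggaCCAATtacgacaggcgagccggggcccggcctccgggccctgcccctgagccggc
Ebp: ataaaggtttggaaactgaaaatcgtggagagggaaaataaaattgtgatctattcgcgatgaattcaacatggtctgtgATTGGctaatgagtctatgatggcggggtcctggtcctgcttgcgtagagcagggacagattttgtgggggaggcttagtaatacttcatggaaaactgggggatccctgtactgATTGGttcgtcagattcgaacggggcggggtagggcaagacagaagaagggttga
Insig2: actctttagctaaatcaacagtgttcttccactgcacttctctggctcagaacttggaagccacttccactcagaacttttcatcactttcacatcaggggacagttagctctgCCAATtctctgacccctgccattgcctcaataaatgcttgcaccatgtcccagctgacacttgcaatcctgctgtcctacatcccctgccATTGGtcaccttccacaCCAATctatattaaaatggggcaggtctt

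CCAAT, searched on both strands of the 300-base windows, was present for 20 of the 23 genes, against 41.1% of all 27025 genes in the table. The exceptions were Abca1, Acat2 and Scap. The other two promoters of Insig2 did not hold it. A gene was counted when any of its windows held the letters, and in this way all 5 genes of the table that passed the test below held them. In 12 of the 23 genes a window held 2 or more copies, beside 11.7% of all 32851 promoters, a share of promoters and not of genes. The letters TCACNCCAC, a core of the sterol regulatory element, occurred for 1 of the 23 genes, Hmgcs1, against 1.44% of all genes. Only these letters were searched, so a site that departs from them was not counted. A window without them is not shown to lack such an element. The E-box CACGTG occurred for 6 of the 23, against 8.09%. No base lay in 2 of the 3 motifs. A match of letters is a description of the window, not evidence that a factor was bound in these islets.

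In the comparison of the diets, 7 of the 26 tested genes were higher on the high fat diet at an adjusted p of 0.05 and 0 were lower (edgeR's quasi-likelihood test, Benjamini-Hochberg adjustment over all loci tested). The 7 are Cyp51, Msmo1, Ebp, Sqle, Sc5d, Fdft1 and Insig2, and their rises were small, between 1.28-fold and 1.48-fold. They make up 26.9% of the tested genes. Over all 23983 loci 5.95% were called higher and 4.86% lower, and over 8484 coding loci with a mean level in the same range (7.09 to 263 CPM, the unit used below, which scales a locus's reads to the library's effective total) 10.9% were called higher and 1.91% lower. At an unadjusted p of 0.05, 12 of the 26 were higher and 0 lower, against 15.4% and 16.4% of all loci and 28.5% and 6.05% of those coding loci.

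The median log2 fold change of the 26 genes was 0.25, beside -0.05 for all loci tested and 0.12 for the coding loci of the same range. The fold change was positive for 20 of the 26, against 45.5% of all loci and 69.7% of those coding loci. For 14 of the 26 every high fat library lay above every normal diet library (18.8% of all loci, 34.7% of those coding loci). For 0 the reverse held (20.4% and 8.18%). The members were listed with earlier results of these data known, so no p is given for the list. RNA of whole islets was measured, in which fewer cells of a type and less RNA per cell cannot be told apart.

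**Figure D1:**
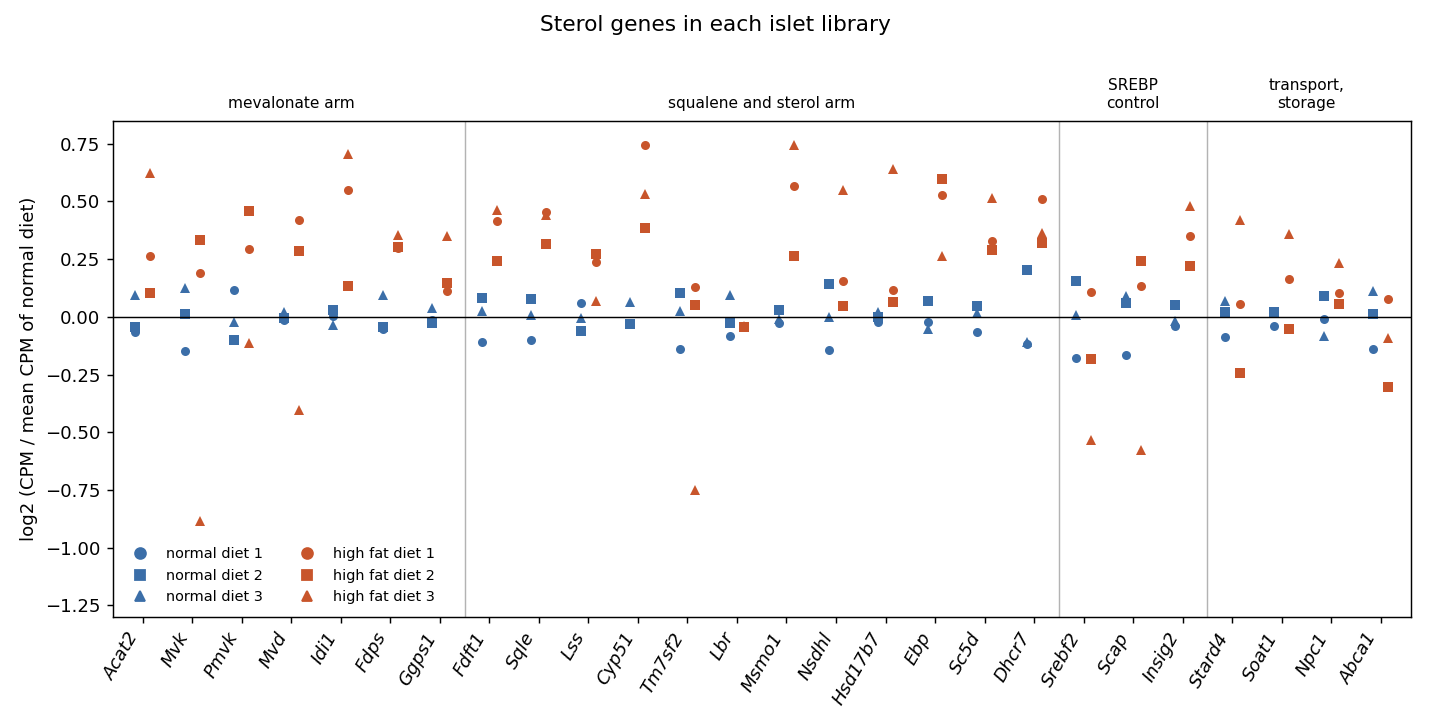
Log2 ratio of each library's CPM to the mean of the 3 normal diet libraries, for the 26 genes in pathway order; blue symbols are normal diet libraries and orange symbols high fat libraries, with circles, squares and triangles for libraries 1, 2 and 3. All 12 genes of the squalene and sterol arm except Tm7sf2, Lbr and Nsdhl have their 3 high fat symbols above the 3 normal diet symbols, and high fat library 3 is the lowest symbol for Mvk, Pmvk, Mvd, Tm7sf2, Srebf2 and Scap.

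The mevalonate arm builds the isoprenoid units from which sterols are made. None of its 7 tested genes passed the test (median log2 fold change 0.23). At an unadjusted p of 0.05, 4 of the 7 were higher and 0 lower. Of coding loci in the CPM range of the 26 genes, 28.5% were higher and 6.05% lower at that threshold. Positive fold changes were found for 6 of the 7, against 69.7% of those coding loci. Idi1, the isomerase that converts isopentenyl to dimethylallyl pyrophosphate, had 6.10, 6.21 and 5.94 CPM in normal diet libraries 1 to 3 and 8.89, 6.67 and 9.91 CPM in high fat libraries 1 to 3. The groups did not overlap, though high fat library 2 lay close to the normal diet, and the difference of 0.48 on the log2 scale had an SE of 0.16 and an edgeR adjusted p of 0.0804.

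Fdps, which makes farnesyl pyrophosphate, measured 15.6, 15.7 and 17.3 CPM under the normal diet and 19.9, 20.0 and 20.7 CPM under the high fat diet. Its 3 high fat values were close together and above all normal diet values (log2 0.32, SE 0.098, edgeR adjusted p = 0.0671). Acat2, the cytosolic thiolase that begins the pathway, had 12.9, 13.1 and 14.4 CPM against 16.2, 14.5 and 20.8 CPM, again without overlap but with high fat library 3 well above the others (log2 0.35, edgeR adjusted p = 0.140). Ggps1 makes the geranylgeranyl pyrophosphate used to anchor proteins in membranes. With 112, 111 and 116 CPM against 122, 125 and 144 CPM its groups did not overlap (log2 0.21, edgeR adjusted p = 0.139).

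The 3 enzymes that phosphorylate and decarboxylate mevalonate did not separate by diet. Mvk, mevalonate kinase, had 12.2, 13.6 and 14.7 CPM under the normal diet and 15.4, 17.0 and 7.31 CPM under the high fat diet. High fat libraries 1 and 2 were above the normal diet and library 3 far below it, so the fold change of -0.03 (SE 0.27) turned to 0.27 without library 3 (edgeR adjusted p = 0.114). Mvd, the decarboxylase, had 8.20, 8.25 and 8.42 CPM against 11.1, 10.1 and 6.26 CPM. Again high fat libraries 1 and 2 were above the normal diet and library 3 below it. Its locus also holds Gm20735, and 39.1% of its exonic bases are shared with another locus. Pmvk, phosphomevalonate kinase, ranged from 30.6 to 35.6 CPM under the normal diet and from 30.3 to 45.1 CPM under the high fat diet, with high fat library 3 the lowest of all 6.

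The squalene and sterol arm held 6 of the 7 genes that passed, out of 12, with a median log2 fold change of 0.38. Whether it differed from the mevalonate arm was not tested. Fdft1, squalene synthase, the first enzyme committed to sterols, measured 47.5, 54.1 and 52.1 CPM under the normal diet and 68.3, 60.5 and 70.6 CPM under the high fat diet. The groups did not overlap and the log2 fold change was 0.38 (SE 0.094, edgeR adjusted p = 0.0414). Sqle, squalene epoxidase, a slow and tightly controlled step of the pathway, had 156, 176 and 168 CPM against 229, 208 and 227 CPM. All 3 high fat values lay above all normal diet values, with a log2 difference of 0.41 (SE 0.081, edgeR adjusted p = 0.0271).

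Lss, which closes oxidosqualene into lanosterol, moved less, with 32.8, 30.2 and 31.4 CPM against 37.1, 38.0 and 33.0 CPM. The groups touched without overlapping and the log2 fold change was 0.20 (SE 0.094, edgeR adjusted p = 0.185). Of its exonic bases 32.9% are shared with an unnamed locus on the opposite strand (XLOC_003277), which had 19.6 ± 0.453 CPM under the normal diet and 22.3 ± 3.09 CPM under the high fat diet (SD, n = 3 each; log2 0.19, edgeR adjusted p = 0.306).

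Cyp51 had the largest rise of the 26. It encodes the cytochrome P450 that takes the 14-alpha methyl group off lanosterol, and its locus spans chr5:4080674-4104697 on the minus strand of mm9. It measured 52.1, 52.1 and 55.7 CPM under the normal diet and 89.4, 69.7 and 77.0 CPM under the high fat diet. Every high fat library was above every normal diet library, with library 2 the nearest, and the log2 fold change was 0.56 (SE 0.10, edgeR adjusted p = 0.0239). Of its exonic bases 59.2% are shared with Akap9 on the opposite strand, and the sources used here do not give strand use in the counting. Akap9, a scaffold protein gene, had 221 ± 23.8 CPM and 214 ± 27.8 CPM (SD, n = 3 each; log2 -0.05, edgeR adjusted p = 0.806).

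The next step, reduction of the C14 double bond, can be done by the proteins of Tm7sf2 and Lbr, and neither gene passed the test. Lbr, which is also a receptor for lamin B in the inner nuclear membrane, had 53.2, 55.3 and 60.2 CPM under the normal diet and 54.6, 54.6 and 54.8 CPM under the high fat diet. Its high fat values lay inside the normal diet range (log2 -0.04, SE 0.082, edgeR adjusted p = 0.761, 0.00 on the log2 scale by DESeq2). The locus of Tm7sf2 also holds Vps51, so its counts belong to both genes. It measured 75.6, 89.3 and 84.6 CPM against 91.1, 86.3 and 49.4 CPM, with high fat library 3 alone below the rest, and without that library its log2 fold change went from -0.14 to 0.10.

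Msmo1, the methyl oxidase that begins removal of the C4 methyl groups, was the second of the 7, at chr8:67196942-67212375 on the minus strand of mm9. It had 151, 157 and 153 CPM under the normal diet and 228, 185 and 258 CPM under the high fat diet. The normal diet libraries were close together, the high fat libraries were all above them and spread more widely, and the log2 fold change was 0.54 (SE 0.12, edgeR adjusted p = 0.0313). The enzymes that finish C4 demethylation showed smaller differences. Nsdhl had 10.5 to 12.8 CPM under the normal diet and 12.0 to 17.0 CPM under the high fat diet (log2 0.27, edgeR adjusted p = 0.269), and Hsd17b7 had 12.7 to 13.1 CPM and 13.5 to 20.1 CPM (log2 0.30, edgeR adjusted p = 0.223). For both, high fat library 3 was the highest and the other high fat libraries were near the normal diet.

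The last steps move and reduce the double bonds of the sterol rings. Ebp, the isomerase also known as emopamil binding protein, lies at chrX:7762457-7770699 on the minus strand of mm9 and measured 38.0, 40.5 and 37.2 CPM under the normal diet and 55.6, 58.4 and 46.3 CPM under the high fat diet. The groups did not overlap, and here library 3 was the lowest of the high fat libraries (log2 0.47, SE 0.10, edgeR adjusted p = 0.0329). Sc5d, the C5 desaturase, had 59.3, 64.1 and 62.7 CPM against 77.8, 75.7 and 88.7 CPM, without overlap (log2 0.38, SE 0.089, edgeR adjusted p = 0.0355). Dhcr7, which reduces 7-dehydrocholesterol to cholesterol, measured 5.63, 7.03 and 5.67 CPM against 8.70, 7.63 and 7.86 CPM, again without overlap, and its log2 fold change of 0.40 (SE 0.14) had an edgeR adjusted p of 0.0895.

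**Figure D2:**
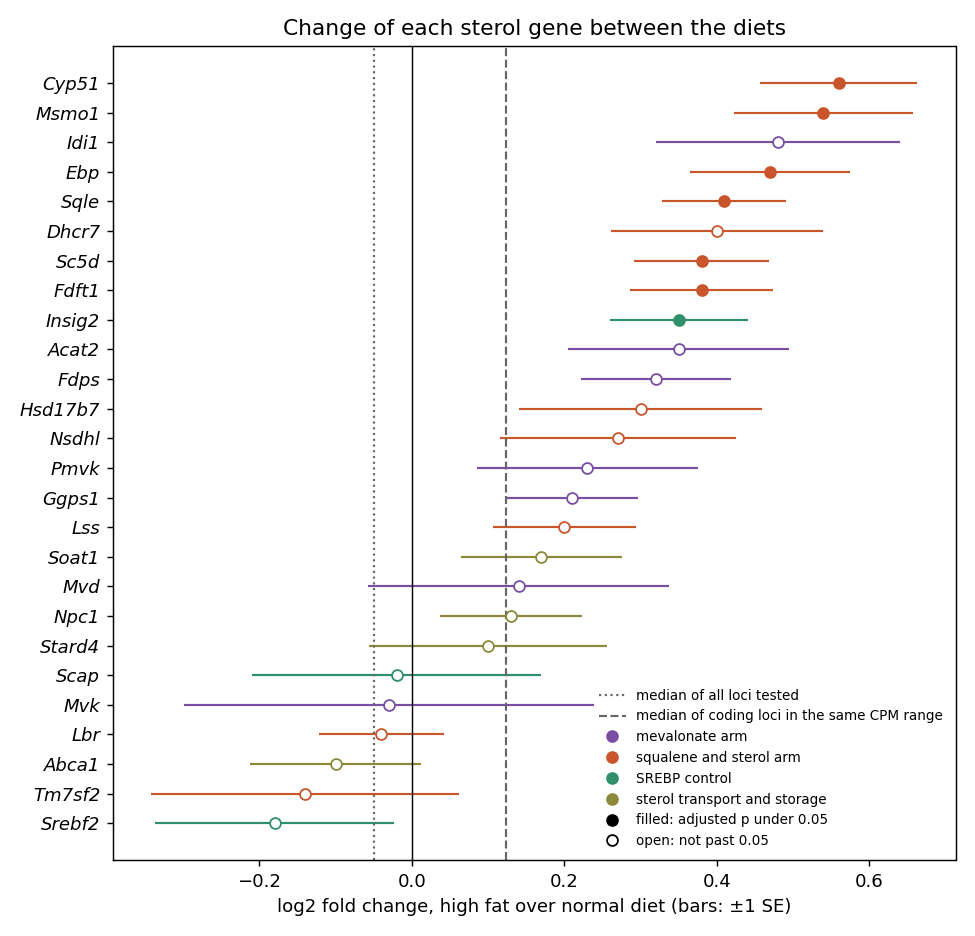
Log2 fold change of each of the 26 genes, high fat over normal diet, with bars of 1 SE on each side, coloured by role; filled symbols passed an adjusted p of 0.05 in edgeR, the dotted line is the median of all loci tested and the dashed line that of coding loci of the same CPM range. The filled symbols lie between 0.35 and 0.56, and Idi1 at 0.48 and Dhcr7 at 0.40 are open symbols among them.

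Of the genes that control the pathway, only Insig2 passed among the 3 tested. Insig2 encodes the second INSIG protein, which retains SCAP like INSIG1 and whose gene in other tissues does not depend on SREBP-2 in the way Insig1 does. It lies at chr1:123200930-123229157 on the minus strand of mm9 and had 55.9, 59.5 and 56.7 CPM under the normal diet and 73.2, 66.8 and 80.1 CPM under the high fat diet. The groups did not overlap (log2 0.35, SE 0.091, edgeR adjusted p = 0.0429).

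Srebf2, which encodes SREBP-2 itself, measured 74.3, 93.7 and 84.6 CPM against 90.6, 74.2 and 58.2 CPM. The groups overlapped and the fold change of -0.18 (SE 0.16, edgeR adjusted p = 0.458) stayed negative in each of the 13 other settings. Scap, the sterol sensor and escort, had 83.8, 97.9 and 100 CPM against 103, 111 and 62.9 CPM. High fat libraries 1 and 2 were above all normal diet libraries and library 3 below them. Its fold change of -0.02 became 0.20 without library 3 (edgeR adjusted p = 0.145).

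The locus of Insig1 was not used for a value. The locus that covers it on the opposite strand (XLOC_026936, unnamed, 22084 reads over the 6 libraries) had 34.8 ± 2.65 CPM under the normal diet and 26.5 ± 3.51 CPM under the high fat diet (SD, n = 3 each; log2 -0.39, edgeR adjusted p = 0.0636). It is not a measure of Insig1.

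None of the 4 genes of sterol transport and storage passed (median log2 fold change 0.12), and for each of them the groups overlapped. Abca1, the pump that loads cholesterol onto apolipoprotein A-I and a target of the sterol-sensing LXR receptors, had 247, 274 and 294 CPM under the normal diet and 287, 220 and 255 CPM under the high fat diet. Its log2 fold change was -0.10 (SE 0.11, edgeR adjusted p = 0.591), and 0.01 without high fat library 2. Soat1, which esterifies cholesterol for storage, had 95.6, 99.5 and 99.4 CPM against 110, 94.8 and 126 CPM, so that high fat library 2 fell just below the normal diet range and the other high fat libraries above it (log2 0.17, edgeR adjusted p = 0.306).

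Npc1, which carries cholesterol out of lysosomes, had 36.6, 39.2 and 34.7 CPM against 39.5, 38.3 and 43.2 CPM (log2 0.13, edgeR adjusted p = 0.357). Stard4, a soluble protein that moves sterols between membranes, had 23.8, 25.7 and 26.5 CPM against 26.3, 21.4 and 33.8 CPM, with high fat library 3 the highest and library 2 the lowest of all 6 (log2 0.10, edgeR adjusted p = 0.686). With offsets for transcript GC content, described below, the log2 fold changes of Soat1, Npc1 and Stard4 were -0.01, -0.02 and -0.08.

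Levels of different genes can be set side by side only per length. Per kilobase of exon, and over the 18 genes whose locus shares no exonic base with another and holds 1 gene, Sqle was the highest on the normal diet at 60.7 ± 3.52 CPM per kb, followed by Msmo1 at 34.4 ± 0.691 (SD, n = 3 each). Their normal diet values did not overlap. Abca1 came next at 26.5 ± 2.28 CPM per kb, and Scap (21.9 ± 2.06), Ebp (21.4 ± 0.962) and Insig2 (21.2 ± 0.703) lay within each other's spread. At the low end were Hsd17b7 at 2.45 ± 0.0341 and Idi1 at 2.12 ± 0.0472 CPM per kb. On the high fat diet Sqle and Msmo1 were again the highest, Sqle at 80.7 ± 4.26 CPM per kb, and Ebp (29.7 ± 3.51) and Insig2 (27.1 ± 2.46) had mean levels above Abca1 (24.8 ± 3.29), within overlapping spreads. Exon length is that of the whole assembled locus, so a gene with many assembled isoforms has a lower value.

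**Figure D3:**
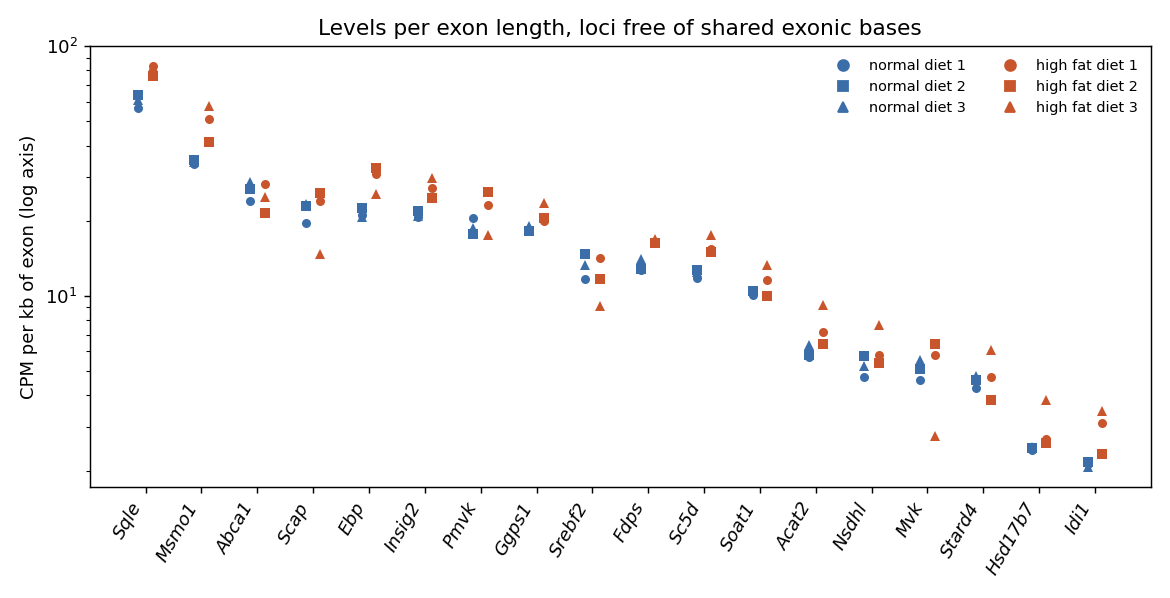
Level per kilobase of exon (CPM per kb, log axis) of the 18 genes with no shared exonic base and 1 gene in the locus, ordered by the normal diet mean; blue symbols are the 3 normal diet libraries and orange symbols the 3 high fat libraries. Sqle and Msmo1 stand above the others on both diets.

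The 3 high fat libraries did not differ evenly from the normal diet. High fat library 2 was the lowest of the 3 for 16 of the 26 genes (61.5%), including 6 of the 7 that passed, against 30.7% of all loci and 25.2% of coding loci of the same CPM range. High fat library 3 was the highest for 14 of the 26 (53.8%), against 41.1% of all loci. The median log2 ratio of the 7 genes to the normal diet mean was 0.46 in high fat library 1, 0.29 in library 2 and 0.48 in library 3. Within the normal diet the same median lay between -0.04 and 0.05.

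Other measures moved with the libraries. Pancreatic acinar RNA, from the enzyme-secreting cells that surround islets, was highest in high fat library 2. Summed over the 15 acinar markers tested, of which 1 was called higher, it ran from 3260 to 6300 CPM under the normal diet and from 4720 to 10200 CPM under the high fat diet. The summed islet hormone and beta cell markers, the label's own tissue, ran from 80700 to 93000 CPM and from 104000 to 122000 CPM. Of the 13 markers 8 were tested. Among these 2 were called higher and 0 lower, with 5 positive and 3 negative fold changes. The sum is carried by the few hormone genes of highest level and does not show a rise of the whole list. With the acinar level as a covariate the 7 genes had log2 fold changes of 0.35 to 0.64 and edgeR adjusted p-values of 0.130 to 0.183, and 0 of the 23983 loci were called. The part of acinar RNA in the result was not tested beyond that.

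The second measure was GC content. The log2 ratio of high fat library 3 to the mean of the other high fat libraries fell with the GC content of the transcript. Spearman's rho was -0.66 over 12015 linked loci and -0.80 over the 26 genes, a description over genes that share the same libraries. Other libraries also varied with GC content. Over the linked loci rho was 0.47 for high fat library 2 over the mean of libraries 1 and 3, and -0.21 for normal diet library 1 over the mean of the other normal diet libraries. These ratios share libraries and are not independent. For the log2 fold change between the diets itself rho was -0.38. In 4 equal classes of GC content, from low to high, 17.3%, 13.1%, 7.49% and 1.2% of linked loci were called higher on the high fat diet. The 7 genes that passed had transcripts of 42.9% to 51.8% GC (median 46.2%) and the other 19 of 40.1% to 59.1% (median 48.7%). The 6 genes for which high fat library 3 was the lowest of all 6 libraries, Mvk, Pmvk, Mvd, Tm7sf2, Srebf2 and Scap, had 56.3%, 57.0%, 59.0%, 51.0%, 57.9% and 59.1% GC.

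**Figure D4:**
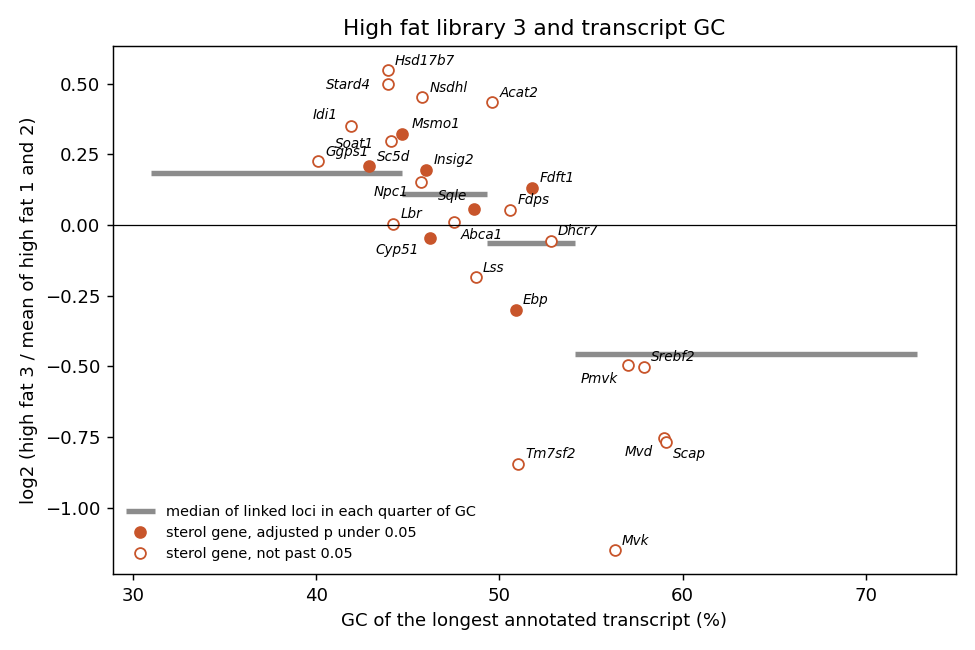
Log2 ratio of high fat library 3 to the mean of high fat libraries 1 and 2 against the GC content of the longest annotated transcript; circles are the 26 genes, filled where the adjusted p in edgeR was under 0.05, and grey bars are medians of linked loci in each of 4 equal classes of GC content. The bars step down from 0.18 to -0.46, and Mvk, Scap, Mvd and Tm7sf2 are the lowest circles.

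With an offset for GC content in each library, fitted on the loci linked to a gene, 4 of the 26 genes passed, all among the 7. Of the 14621 linked loci 683 were then called higher and 762 lower. The 4 genes were Ebp (edgeR adjusted p = 0.0367), Sqle (0.0378), Cyp51 (0.0419) and Msmo1 (0.0464). The log2 fold changes of the 7 were then between 0.19 and 0.42, against 0.35 to 0.56 without the offset. Sc5d and Insig2 were then the lowest, at 0.19 and 0.20. Without high fat library 3 the 7 genes kept an adjusted p under 0.05 and Pmvk, Mvd, Fdps and Lss were added, which made 11. Over the 24893 loci then tested, 3075 were called higher and 1960 lower, against 1426 and 1165 of 23983 with all libraries. The gain was thus not particular to these genes.

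Without any 1 of the other libraries most calls were lost, among the 7 genes and over all loci alike. Leaving out any 1 normal diet library, or high fat library 1, left 0 of the 26 called, and leaving out high fat library 2 left 1, Msmo1 (edgeR adjusted p = 0.0431). Over all loci 1426 were called higher and 1165 lower with all 6 libraries. Those counts were 0 and 0 without any 1 normal diet library, 94 and 34 without high fat library 1, and 57 and 29 without high fat library 2. The loss was thus not particular to these genes. With each of the 6 libraries left out in turn the 7 fold changes lay between 0.29 and 0.67 on the log2 scale. That they stayed positive is no test of direction. In all 7 every high fat library lay above every normal diet library, so losing 1 library could not be expected to reverse a sign.

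**Figure D5:**
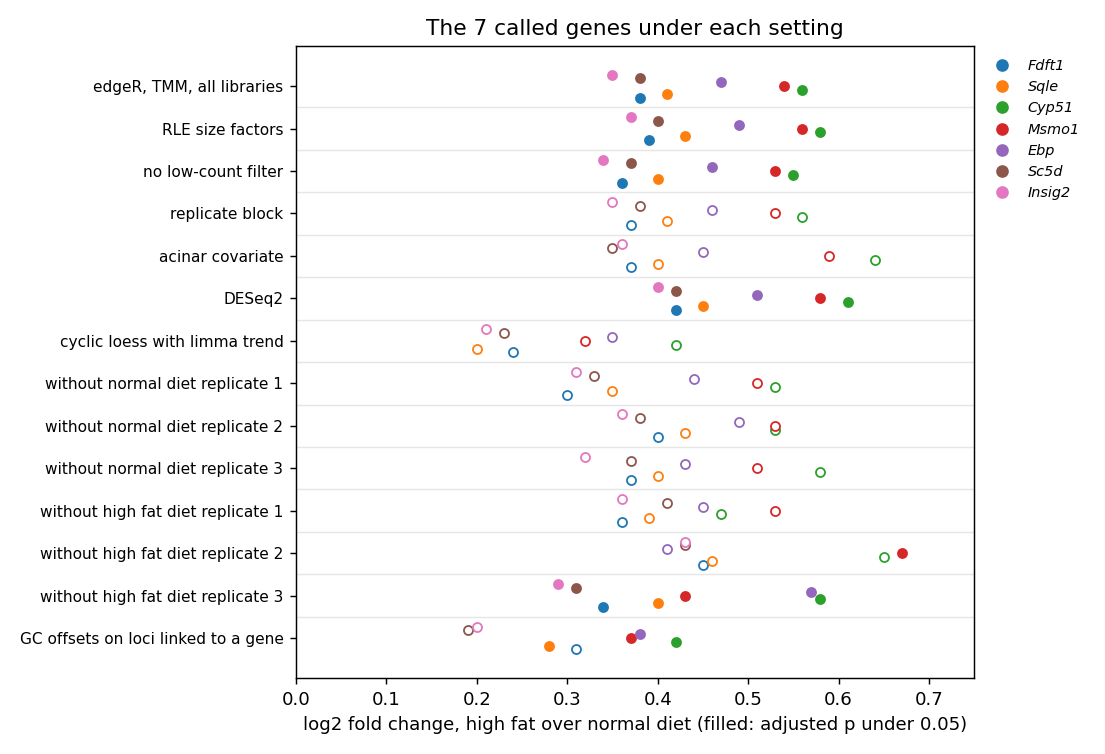
Log2 fold change of the 7 genes, high fat over normal diet, under the reported fit and each other setting; filled symbols had an adjusted p under 0.05. All symbols lie between 0.19 and 0.67, and the symbols are open for every gene with the replicate block, the acinar covariate, cyclic loess, each left-out normal diet library and high fat library 1 left out.

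A further 78 genes around the pathway gave 70 tested loci, of which 8 (11.4%) were higher and 3 lower, with a median log2 fold change of 0.13. The share higher was near that of coding loci in the CPM range of the 26 genes (10.9% higher and 1.91% lower, median 0.12), so the counts below describe single genes and show nothing about these lists. Of other sterol synthesis genes and SREBP-2 targets 2 of 11 passed. The median log2 fold change of the 11 was 0.04, with 7 positive and 4 negative. Acat1, the mitochondrial thiolase, rose from 148, 153 and 162 CPM to 213, 236 and 236 CPM (log2 0.56, SE 0.080, edgeR adjusted p = 0.0173). Stard3nl, a tether between late endosomes and the endoplasmic reticulum, rose from 37.6, 39.4 and 40.4 CPM to 49.4, 50.1 and 50.2 CPM (log2 0.35, edgeR adjusted p = 0.0340). In both the 3 high fat libraries lay close together and clear of the normal diet.

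Of the 10 tested genes that process SREBPs or degrade pathway enzymes 0 passed, with 5 higher and 0 lower at an unadjusted p of 0.05. Of coding loci in the CPM range of the 26 genes, 28.5% were higher and 6.05% lower at that threshold. Srebf1, the gene of the fatty acid regulator SREBP-1, had 130, 169 and 161 CPM against 152, 138 and 62.7 CPM, overlapping groups with high fat library 3 far below (log2 -0.38, edgeR adjusted p = 0.370). The LXR receptor genes Nr1h2 (log2 -0.41, edgeR adjusted p = 0.360) and Nr1h3 (0.23, edgeR adjusted p = 0.263) and the exporter gene Abcg1 (-0.18, edgeR adjusted p = 0.390) did not pass. Of the 10 LXR genes tested 1 fell, Abcg4, a sterol transporter gene of low level, from 0.84, 0.839 and 0.849 CPM to 0.38, 0.569 and 0.247 CPM (log2 -1.10, SE 0.29, edgeR adjusted p = 0.0459).

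Of 21 genes of cholesterol uptake, movement and esterification 3 rose and 2 fell. Lrp1, an endocytic receptor for lipoprotein remnants, fell from 36.7, 31.7 and 32.8 CPM to 20.2, 20.9 and 12.7 CPM, all high fat values well below the normal diet (log2 -0.91, SE 0.18, edgeR adjusted p = 0.0271). Lrp8, a receptor of the same family, fell from 12.8, 13.5 and 12.3 CPM to 9.54, 7.86 and 5.58 CPM (log2 -0.75, edgeR adjusted p = 0.0399), and 44% of its exonic bases lie in a second locus as well. The rises were smaller. Scarb2, a lysosomal membrane protein gene, rose by 0.31, Nceh1, a neutral cholesterol ester hydrolase gene, by 0.31, and Vapa, which anchors lipid transfer proteins to the endoplasmic reticulum, by 0.33 on the log2 scale (edgeR adjusted p = 0.0394, 0.0458 and 0.0452).

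The isoprenoid branch, which uses farnesyl and geranylgeranyl units for other products, had 3 of 12 genes higher. Nus1, a subunit of the enzyme that makes dolichol precursors, rose from 104, 114 and 86.5 CPM to 154, 131 and 172 CPM (log2 0.59, SE 0.13, edgeR adjusted p = 0.0328). Zmpste24, the protease that matures prelamin A, rose by 0.32 and Rabggtb, a geranylgeranyl transferase subunit, by 0.28 on the log2 scale (edgeR adjusted p = 0.0387 and 0.0454). Of the 6 tested genes of oxysterol and bile acid synthesis 0 passed, with 2 higher at an unadjusted p of 0.05. The share of coding loci in the CPM range of the 26 genes was 28.5% at that threshold.

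None of the tested loci next to the 26 genes passed. Within 5 kb of, or overlapping, the 26 spans lay 44 other loci, of which 35 were tested and 0 called. Over all loci tested 5.95% were called higher and 4.86% lower. The log2 fold changes of the 35 ran from -0.88 to 0.26, with a lowest edgeR adjusted p of 0.0534. Several had low levels, such as XLOC_009325 with a mean of 0.206 CPM under the normal diet. The 0 calls therefore do not show that the neighbours stayed level. Ctsb, the lysosomal protease gene that shares exonic bases with Fdft1 (20.9% of those of Fdft1), went from 266 ± 30.8 to 314 ± 11.3 CPM (SD, n = 3 each; log2 0.24, edgeR adjusted p = 0.129). Among these 44 loci were 15 new ones, assembled from these libraries without an annotated gene, and 12 of them were tested.

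Over the whole series, each library held between 104657337 and 135353777 reads counted to loci. On the second principal component high fat library 3 lay at 59.4, against -32.3 and -25.5 for the other high fat libraries. Of the markers of other cell types, alpha cell genes were 1 higher and 3 lower of 6, Schwann cell genes 3 lower of 7, stromal genes 2 higher and 1 lower of 10, myeloid genes 1 lower of 10, and endothelial, duct and lymphocyte genes 0 of 9, 5 and 4. Of 5 adipocyte markers Adipoq, Plin1 and Lep had too few reads to be tested, and 1 of the other two, Fabp4, was higher. The part of these cells in the result was not tested.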

How the data were processed

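The authors deposited raw counts of reads per assembled locus and the transcripts in mm9. HTSeq 0.5.4p3, TopHat2 2.0.8, Cufflinks 2.1.1 and edgeR are named in the submitters' processing notes. Per the labels' protocols, ribosomal RNA was depleted and libraries were stranded, without poly(A) selection. Whether counting used strand is not given in the sources used here, so overlapping genes are uncertain. Loci were linked to GENCODE M21 genes by exon and intron lengths, each in its own build, and genes over 90% shared were skipped.

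Counts were tested in R 4.3.3 with edgeR 4.0.16 (filterByExpr, TMM, quasi-likelihood, diet only, two-sided, Benjamini-Hochberg over 23983 loci). CPM are TMM-normalised, and each SE is the log2 fold change over the root of its F statistic. DESeq2 1.42.0, limma 3.58.1, RLE factors, no filter, a replicate block, an acinar covariate, GC offsets (chosen after seeing the data) and each library left out were alternatives. The members and lists were chosen with earlier results of these data known. Described are all members, up to 4 called genes per other list, direct partners, and loci called near or overlapping a member. Some genes that rule takes are not reported here. Counts were also simulated (3 against 3, 23451 loci), with 67 loci changed 1.5-fold, 67 changed 2-fold and 66 changed 4-fold. The test found 17.9% of the 1.5-fold and 85.1% of the 2-fold changes. Of its 152 calls 17 were false, a larger share than the adjusted p threshold of 0.05 aims at.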

Additional observations from a re-analysis of the deposited data

How the results depend on the processing

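The direction of the 7 called genes held under all 13 alternatives, but their calls did not. Because the groups did not overlap in any of the 7, the fits with 1 library left out were no test of direction. Of the 26 genes, 10 were called higher by DESeq2 (the 7, Idi1, Fdps and Dhcr7), 7 with RLE factors or no low-count filter, 5 of the 18 with unshared loci, 4 with GC offsets and 0 with cyclic loess or the acinar covariate. With replicate number as a block 0 were called, with log2 fold changes of 0.35 to 0.56 (edgeR adjusted p 0.0622 to 0.0962). In their deviations from the group means same-numbered libraries correlated at -0.07, 0.07 and -0.01, and other pairs at -0.16 to 0.15. With 3 libraries in each group such correlations cannot exclude a batch shared by same-numbered libraries. The sample labels give no pairing. Leaving out 1 library gave 0 to 11 called genes. No setting called any of the 26 lower.

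Over the 23983 loci tested the calls higher and lower were 1426 and 1165. On the same loci they were 54 and 20 with the replicate block and 249 and 232 with cyclic loess. With the acinar covariate they were 0 and 0 (4601 at an unadjusted p of 0.05). Other settings covered other sets of loci, so their counts are not directly comparable. DESeq2 gave 2476 and 1653 (39470 loci fitted). GC offsets gave 683 and 762 (14621 loci linked to a gene), and no filter gave 1134 and 1209 (33177 loci). With 1 library left out (24558 to 25280 loci) the calls ran from 0 to 3075 and 0 to 1960. Other pathway genes had 8 higher and 3 lower. They had 0 and 0 with the block and the acinar covariate, 14 higher with DESeq2, 0 with cyclic loess, 3 with GC offsets, and 0 to 19 and 0 to 4 with 1 library left out. Neighbouring loci had 0 calls, 1 with no filter, 2 with DESeq2, 1 with GC offsets and 0 to 2 with 1 library left out.

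Sign changes were limited to genes that did not pass. With DESeq2 the log2 fold change was 0.01 for Mvk, 0.02 for Scap and 0.00 for Lbr (-0.03, -0.02 and -0.04 as reported). With GC offsets it was 0.13 for Scap, -0.08 for Stard4, -0.01 for Soat1 and -0.02 for Npc1, and with cyclic loess -0.01 for Soat1. With 1 library left out it ranged from -0.24 to 0.27 for Mvk, -0.02 to 0.36 for Mvd, -0.29 to 0.10 for Tm7sf2, -0.17 to 0.20 for Scap, -0.08 to 0.26 for Stard4 and -0.19 to 0.01 for Abca1. The upper end for Mvk, Mvd, Tm7sf2 and Scap, and the lower end for Stard4, came without high fat library 3. The cause was not tested. The ratios of Insig2 to Insig1 and of Lbr to Tm7sf2 were not run, because Insig1 was skipped and the Tm7sf2 locus holds Vps51. In simulated counts, 3 libraries against 3, most changes of 1.5-fold were missed, and the 7 called genes rose by less than that. Far fewer loci were changed there (67 at 1.5-fold) than were called in the data. The share found therefore does not carry over to these genes.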

Other observations

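Hmgcs1 had a structure that matched its chain of 10 introns only on the unplaced sequence of chromosome 13 in mm9, where 2 loci (XLOC_009815 and XLOC_009817) carry it. Both held 0 reads over the 6 libraries. Reads that map equally well to 2 copies can be left uncounted, and how they were treated is not given in the sources used here, so these zeros are no measure of the gene. Its GRCm38.p6 promoter was the only one of the 23 with the letters TCACNCCAC, and it held 4 copies of CCAAT.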
